A study of Ovis aries with 16 samples.

Results

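In the testis of adult Merino rams, 607 of 4996 listed putative piRNAs had exactly the same value as at least 1 other piRNA in all 16 libraries, and these formed 202 groups of identical piRNAs. The members were chosen by that identity, after the 300 piRNAs with the highest mean level had been left out, so the identity itself is a description of the deposited values and was not tested. The members made up 12.1% of the listed piRNAs. A group is counted once throughout and is called by its lowest ID number, such as oar-piR-2144. Counting each group once left 4580 distinct piRNA profiles in the series. The positions and sequences of the piRNAs were not analysed here.

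piRNAs are small RNAs that bind PIWI proteins, a branch of the Argonaute family found mainly in germ cells. They are cut from long single-stranded precursors, and a stretch of genome that yields many of them is called a piRNA cluster. In the testis they are best known for guiding PIWI proteins to transcripts of transposable elements, and other piRNAs come from introns or untranslated regions of protein-coding genes. The piRNAs listed here were putative: their sequences, 26 to 32 nt long, matched the ovine genome without mismatch and passed a predictor trained on other species.

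One testis library was sequenced from each of 16 Merino males. The 8 well-fed males were kept for 65 days on a diet set for a gain of 10% in weight, and the 8 underfed males on a diet set for a change of -10%. All males were sexually mature and received the same feed before the diets, and the dietary groups had been balanced for body mass, scrotal circumference and sperm quality. Levels are given as CPM, counts per 1000000 piRNA reads of the library. The well-fed libraries held 25552 to 721305 piRNA reads (median 562817) and the underfed libraries 18110 to 625230 (median 280058). One read was worth 1.39 to 4.08 CPM in 13 libraries, called deep here. In the other 3 libraries, called shallow, it was worth 39.1 CPM (well-fed 5), 55.2 CPM (underfed 6) and 30.0 CPM (underfed 8). A low level in a shallow library therefore rests on very few reads, and diet results of named groups are given from all 16 and from the 13 deep libraries where the value differs by more than 1.5 times or the sign changes. Levels are shares of the piRNA reads of a library, so a general loss of germ cells or of piRNA per cell would not show in them. The tissue was whole testis, so a different mix of cells and a different share per cell cannot be told apart.

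Most groups were pairs. Of the 202 groups, 161 had 2 members, 19 had 3, 8 had 4, 2 had 5 and 5 had 6. There was 1 group each of 7, 8, 36, 38 and 49 members, and 2 groups of 9. The 3 largest groups held 123 members, or 20.3% of all members. A count over single piRNAs thus gives these 3 profiles a large weight, which the count by group does not.

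The ID numbers of a group were close together in most cases. In 149 groups, with 361 members, the numbers formed 1 unbroken run. In 50 groups, with 240 members, a run or a single number was joined by numbers from 13208 to 13566, the last block of ID numbers. The start of this block was set from the groups themselves. It is the lowest second number in the longest chain of groups that rise in both parts. That chain held 50 of the 53 groups with numbers in 2 parts, so their common order in both parts follows from this choice. Only 3 groups had 2 single distant numbers outside that block: oar-piR-2473 with oar-piR-8201, oar-piR-3302 with oar-piR-11022, and oar-piR-6249 with oar-piR-11416.

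**Figure D1:**
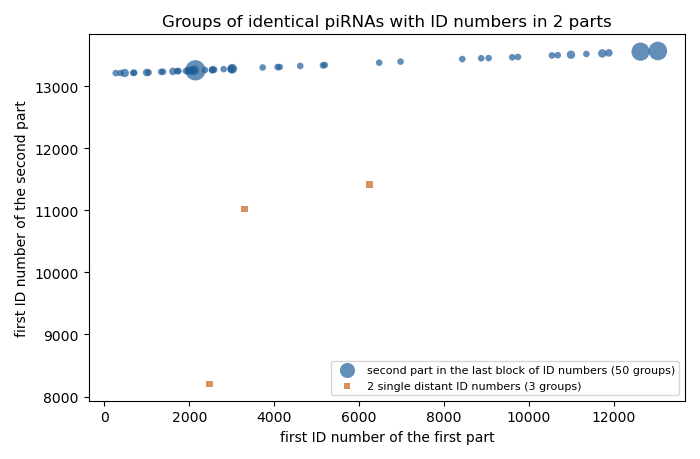
First ID number of the second part of a group (y axis) against the first ID number of its first part (x axis), for the 53 groups whose numbers fall in 2 parts; marker size grows with the number of members. The 50 circles lie on a slightly rising line between 13208 and 13566, and the 3 squares lie apart below it.

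The last block was set from the groups, and its share of members is a description. Of its 104 listed piRNAs, 72 (69.2%) belonged to a group, against 535 of the 4892 with a lower number (10.9%). The widest spans of ID numbers were in oar-piR-268 with oar-piR-13208, in oar-piR-381 with oar-piR-13209, and in oar-piR-479 and oar-piR-480 with oar-piR-13210 and oar-piR-13211. Their levels differed widely: the mean over 16 libraries was 30.9 CPM for oar-piR-268, 188 CPM for oar-piR-381 and 7.73 CPM for oar-piR-479.

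Identity was complete or absent. Among 2984 pairs of listed piRNAs with consecutive numbers, 363 (12.2%) were identical in all libraries, and every other pair differed in at least 8 of 16. In 1422 of these pairs the values differed in all 16 libraries. Among all 10485910 pairs of distinct profiles, none differed in fewer than 5 libraries, and 9 pairs differed in 5. The rows just outside the rule were therefore not near copies of a group. The 9 pairs had 32 to 59 reads per piRNA in all and ID numbers at least 518 apart. In oar-piR-3150 with oar-piR-8325, which had 40 and 42 reads, the largest difference in a library was 2 reads.

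**Figure D2:**
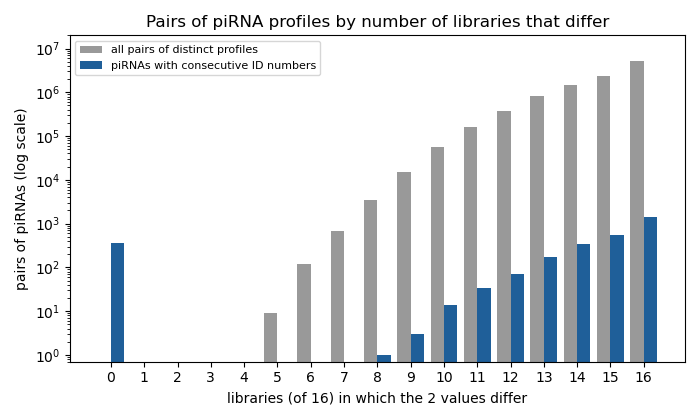
Number of pairs of piRNA profiles (y axis, log scale) by the number of libraries, of 16, in which the values of the pair differ (x axis); grey bars are all pairs of distinct profiles and blue bars are listed piRNAs with consecutive ID numbers. The blue bars stand at 0 libraries (363 pairs) and from 8 libraries upward, with none between.

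Neighbours in the ID numbers that were not identical were in the median no more alike than distant piRNAs. Over the 16 libraries the median correlation of log2(CPM/TMM factor + 1) was 0.228 for non-identical consecutive pairs, and 0.230, 0.235 and 0.237 for pairs 2, 10 and 100 numbers apart. For the 155 groups with a listed neighbour number outside the group, the 297 pairs of group and neighbour had a median correlation of 0.233 (from -0.73 to 0.92). These pairs share their libraries and depths, and the values are descriptions. In 38 groups the neighbour number belonged to another group, so identical runs could lie side by side with different profiles.

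The groups spanned the range of levels below the 300 left out. Group means ran from 4.15 to 540.9 CPM with a median of 25.7, against a median of 31.9 for the 4089 other piRNAs below the same level. The share of piRNAs that were members was 15.6% in the lowest of 4 equal classes of mean level, 12.4% and 15.1% in the next ones and 8.62% in the highest. A median group rested on 145.5 reads over the 16 libraries (from 28 to 3584), which bounds what a comparison of single groups can show.

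Of the 202 groups, 52 (25.7%) were above 0 in all 16 libraries, and 166 (82.2%) were above 0 in all 13 deep libraries. The same shares of the other piRNAs were 31.2% and 83.7%. Of 3232 values over groups and libraries, 362 were 0, and 305 of these were in the 3 shallow libraries. A 0 in a shallow library allows a level of up to 89.9 to 165.7 CPM (3 reads), above the mean of most groups, and this covers counting error only.

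At the level that separated the 300 piRNAs left out, the lowest mean among them was 597.6 CPM and the highest below was 593.4. There were 8 further groups with 19 piRNAs among those 300. The nearest were oar-piR-217 and oar-piR-218 with a mean of 729.2 CPM, oar-piR-8172 to oar-piR-8175 with 731.0 and oar-piR-22 and oar-piR-23 with 768.4. The highest group inside the rule was oar-piR-86 with oar-piR-87 at 540.9 CPM. No group lay between 540.9 and 729.2 CPM.

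Counting each member separately changed the weight of the groups in a library. All 607 members together took 3.28% ± 0.548 (SD, n = 16) of the piRNA CPM, and each group counted once took 1.22% ± 0.189. The ratio of both sums lay between 2.50 and 3.08 in every library. Counted once, the groups took 1.18% ± 0.0576 (from 1.10% to 1.26%) in the 8 well-fed males and 1.25% ± 0.266 (from 0.966% to 1.73%) in the 8 underfed males. The ranges of the diets overlapped, and the underfed males were the more widely spread.

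The largest group, oar-piR-2144, held 49 piRNAs: the run to oar-piR-2191 and oar-piR-13253. Its level in the well-fed males was 17.2 CPM at the lowest, 39.0 at the median and 49.2 at the highest, and in the underfed males 0, 31.0 and 79.8. The only 0 was in the shallow library of underfed 6, and both extremes were in underfed males. Each of the 49 piRNAs is thus listed with 220 reads over the 16 libraries. Whether these are the same reads was not tested.

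The group of 38 piRNAs, oar-piR-13039 to oar-piR-13073 with oar-piR-13564 to oar-piR-13566, was near the lower end of the levels. It rested on 46 reads in all, with 0, 4.43 and 18.4 CPM as lowest, median and highest in the well-fed males and 0, 6.63 and 15.99 in the underfed males. The group of 36, oar-piR-12630 to oar-piR-12664 with oar-piR-13553, was higher, at 39.1, 58.1 and 122.5 CPM in the well-fed and 13.9, 85.9 and 220.9 CPM in the underfed males. Its lowest deep value was 4 reads in underfed 1, and its highest value was also 4 reads, in the shallow library of underfed 6. For oar-piR-2144, oar-piR-13039 and oar-piR-12630 the diets overlapped, and the log2 fold changes, underfed over well-fed, were -0.73 (SE 0.68), 0.026 (SE 0.74) and 0.23 (SE 0.43). Their limma FDR were 0.901, 0.997 and 0.955. In the 13 deep libraries the log2 fold changes were -0.027, 0.49 and 0.015, with limma FDR of 0.994, 0.813 and 0.995. The value of oar-piR-2144 ran from -1.01 to -0.081 and that of oar-piR-12630 from 0.076 to 0.56 with 1 male left out.

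The groups of 9 were oar-piR-2258 to oar-piR-2266 and oar-piR-2221 to oar-piR-2229. oar-piR-2258 had a lowest, median and highest level of 0, 44.6 and 75.4 CPM in the well-fed males and of 24.3, 76.6 and 220.9 CPM in the underfed males. oar-piR-2221 had 0, 9.23 and 13.2 CPM in the well-fed males and 0, 8.52 and 29.5 CPM in the underfed males. Both were at 0 in the shallow library of well-fed 5, and their diets overlapped. The log2 fold change of oar-piR-2258 was 1.37 (SE 0.74, limma FDR 0.901), and it was 0.74 (SE 0.38, FDR 0.616) in the deep libraries and 0.70 to 1.61 with 1 male left out. Its lowest well-fed value and its highest underfed value were both in shallow libraries. For oar-piR-2221 the log2 fold change was -0.25 (SE 0.81) over 16 and 0.25 (SE 0.43) over 13 libraries.

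The question of the diet comparison is whether underfeeding changes the small RNAs of the testis. None of the 202 groups was DE between the diets with limma, where DE required an FDR under 0.05 over all 4996 piRNAs and a fold change of mean CPM (FC, underfed over well-fed) under 0.67 or above 1.5. The lowest FDR of a group was 0.901. DE was called for 1 of the 4996 piRNAs (0.02%), oar-piR-11578, which is no member. edgeR and DESeq2 on recovered reads also called 0 groups, against 0.0437% and 0.0655% of the distinct profiles, and limma on the 13 deep libraries called 0 against 0.0657%. All 4996 listed piRNAs, and so all 202 groups, passed the filter of more than 5 CPM in at least 8 libraries.

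An unadjusted limma p under 0.05 was found for 7 of the 202 groups (3.47%), 1 higher and 6 lower in the underfed males, against 4.52% of all piRNAs and 4.65% of the distinct profiles. By direction, the distinct profiles had 0.721% higher and 3.93% lower. In this fit the share among the groups was near or below this background in each direction. Counted by member, the same 7 profiles would have given 20. In the 13 deep libraries 14 of 201 groups had such a p (6.97%, 7 in each direction) against 8.34% of the distinct profiles (146 higher and 235 lower of 4567). edgeR gave 20 groups (9.90%, 11 higher and 9 lower) against 7.53% (144 higher and 201 lower of 4580). DESeq2 gave 15 (7.43%, 10 higher and 5 lower) against 4.83% (121 higher and 100 lower of 4580). With edgeR and DESeq2 the share of the groups was thus above that of the distinct profiles, mainly for those higher in the underfed males. This was not tested. With single males left out, limma gave 12 groups without well-fed 5 (6.03% against 6.27% of the distinct profiles) and 11 without underfed 1 (5.61% against 7.32%). It gave 4 without underfed 2 (2.06% against 4.92%), 4 without well-fed 7 (2.05% against 4.78%) and 3 without well-fed 2 (1.55% against 3.30%).

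The direction over the groups depended on the model. With limma 66 groups were higher and 136 lower in the underfed males, with a median log2 fold change of -0.27, beside -0.23 over all piRNAs. With edgeR 102 were higher and 100 lower with a median of 0.015, and the median over all piRNAs was -0.013. In the 13 deep libraries 94 were higher and 107 lower, with a median of -0.019 beside -0.041. The sign of the median thus changed with the model, and its size was smaller without the 3 shallow libraries. Without well-fed 5 alone the median of the groups was -0.48, without underfed 6 alone -0.0042, and without underfed 8 alone -0.064. Single groups ranged from -2.28 to 1.39 with limma, with a median SE of 0.76.

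**Figure D3:**
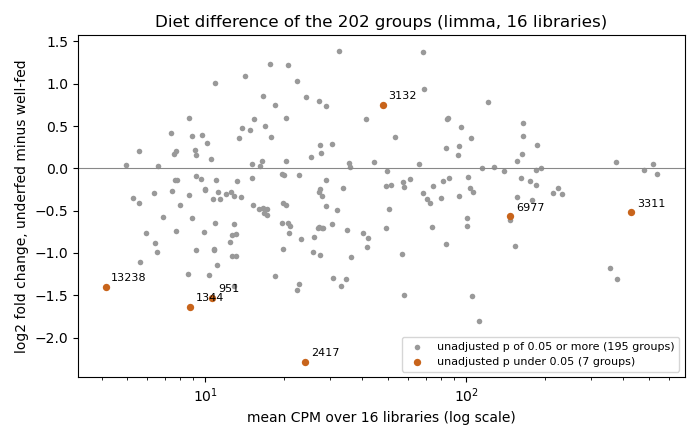
Log2 fold change of each of the 202 groups, underfed minus well-fed (y axis), against its mean CPM over 16 libraries (x axis, log scale), from limma on all 16 libraries; orange points have an unadjusted p under 0.05 and carry the number of the group. The 7 orange points are 1 group above 0 (3132) and 6 below it, and none of the 202 groups passed an FDR of 0.05.

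The group with the lowest p was oar-piR-3311 with oar-piR-3312, which was also among the 5 highest groups. Its level was 356.6 CPM at the lowest, 458.9 at the median and 669.6 at the highest in the well-fed males, and 183.9, 354.5 and 552.2 in the underfed males. The highest well-fed and the lowest underfed values stood apart, but the diets overlapped between 356.6 and 552.2 CPM. The log2 fold change was -0.52 (SE 0.19, limma unadjusted p 0.0115, FDR 0.901, FC 0.740). In the deep libraries it was -0.51 with an FDR of 0.550.

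Only oar-piR-2417 with oar-piR-2418 had diets that did not overlap, and it was lower in the underfed males. The well-fed males had 34.3, 27.6, 40.0, 31.5, 39.1, 30.5, 34.2 and 36.2 CPM in the order of their numbers. The underfed males had 13.9, 25.1, 23.6, 25.8, 0, 0, 25.6 and 0 CPM. Of the 3 values at 0, 2 were in shallow libraries, the third was in underfed 5, and the gap between the diets was from 25.8 to 27.6 CPM. The well-fed value of 39.1 CPM was 1 read in a shallow library. A 0 in a shallow library allows a level above the whole well-fed range, so the lack of overlap is not secure there. In the deep libraries it holds only as counted. The 25.8 CPM of underfed 4 were 7 reads of 3.68 CPM each, and 1 more read would close the gap. Such a lack of overlap occurred in 6 of the 4580 distinct profiles over all libraries (0.131%). Over the deep libraries alone it occurred in 17 distinct profiles. The log2 fold change was -2.28 (SE 0.83, limma unadjusted p 0.0126, FDR 0.901) and -1.33 (SE 0.61, FDR 0.608) in the deep libraries, so the size moved by more than 1.5 times with the shallow libraries left out. edgeR gave -0.81 with an FDR of 0.550.

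oar-piR-3132 with oar-piR-3133 was the only group with an unadjusted p under 0.05 and a higher level in the underfed males. The well-fed males had 40.4, 39.7, 24.6, 26.3, 39.1, 52.7, 34.2 and 21.4 CPM, and the underfed males 38.2, 52.9, 64.9, 55.2, 69.4, 55.2, 64.0 and 89.9 CPM. Only underfed 1 lay within the range of the well-fed males. The value of 89.9 CPM was 3 reads in a shallow library. The log2 fold change was 0.75 (SE 0.31, limma unadjusted p 0.0245, FDR 0.901, FC 1.76), and 0.76 (SE 0.24, FDR 0.467) in the deep libraries. oar-piR-2417, oar-piR-3132 and oar-piR-3311 were the 3 groups with an unadjusted p under 0.05 in limma on 16 and on 13 libraries, edgeR and DESeq2.

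The other groups lower in the underfed males at an unadjusted p under 0.05 were oar-piR-1344, oar-piR-951, oar-piR-6977 and oar-piR-13238. oar-piR-951, with 8 members to oar-piR-958, had 8.07, 11.2 and 39.1 CPM as lowest, median and highest in the well-fed males and 0, 5.84 and 13.9 in the underfed males. oar-piR-1344 with oar-piR-1345 had 3.505, 8.82 and 39.1 CPM in the well-fed males and 0, 2.53 and 17.7 in the underfed males. In both, the highest well-fed value was 1 read in the shallow library of well-fed 5, and the diets overlapped. The log2 fold changes of oar-piR-951 and oar-piR-1344 were -1.53 and -1.64 over 16 libraries and -0.58 and -0.80 over the deep libraries, where neither had an unadjusted p under 0.05. oar-piR-6977 with oar-piR-13393 was more abundant, with 126.2, 174.7 and 201.8 CPM against 55.2, 122.8 and 209.7. Its lowest and highest values were both in shallow underfed libraries, and its log2 fold change was -0.57 (SE 0.26, limma FDR 0.901), beside -0.43 (SE 0.18, FDR 0.550) in the deep libraries.

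oar-piR-13238 with oar-piR-13239 had the lowest mean of all groups, 4.15 CPM, and 31 reads over the 16 libraries. It was at 0 in 5 underfed males and in 1 well-fed male, and no value exceeded 10.1 CPM. Its log2 fold change was -1.40 (SE 0.66, limma FDR 0.901) over 16 and -1.36 (SE 0.65, FDR 0.616) over 13 libraries.

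**Figure D4:**
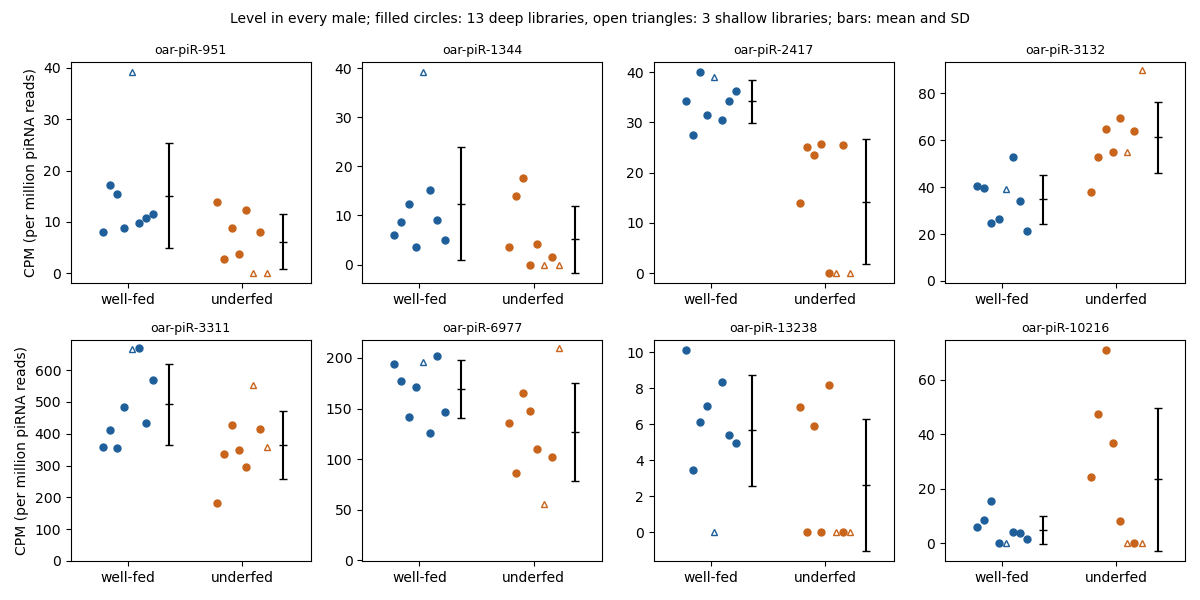
CPM (y axis) in every well-fed (blue) and underfed (orange) male for the 7 groups with an unadjusted limma p under 0.05 and for oar-piR-10216; filled circles are the 13 deep libraries, open triangles the 3 shallow ones, and black bars give the mean and SD of 8 males. The diets do not overlap for oar-piR-2417, where all well-fed males lie at or above 27.6 CPM, and overlap in the other 7 panels.

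The groups next in line for a higher level in the underfed males were oar-piR-1539, oar-piR-9743, oar-piR-2258 and oar-piR-1349. oar-piR-1539 with oar-piR-1540 had 68.5, 120.0 and 228.1 CPM as lowest, median and highest in the well-fed males and 124.9, 178.7 and 289.7 in the underfed males. oar-piR-9743 with oar-piR-13468 had 16.2, 104.7 and 122.5 CPM against 52.9, 154.8 and 276.1. oar-piR-1349 with oar-piR-1350 had 0, 13.8 and 17.2 CPM against 8.17, 26.9 and 59.9. The diets overlapped in all of them, and the limma FDR of each was 0.901. For oar-piR-1349 the log2 fold change was 1.23 (SE 0.67) over 16 and 0.43 (SE 0.39) over 13 libraries.

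Beside oar-piR-3311, the 5 highest groups were oar-piR-86, oar-piR-427, oar-piR-2623 and oar-piR-536. oar-piR-86 had 309.2, 540.8 and 594.6 CPM as lowest, median and highest in the well-fed males and 110.4, 629.0 and 802.8 in the underfed males. oar-piR-427 with oar-piR-428 had 184.0, 418.5 and 871.0 CPM against 119.8, 428.3 and 1473. oar-piR-2623 with oar-piR-2624 had 195.7, 454.5 and 797.6 CPM against 276.1, 469.7 and 764.4. The underfed range was the wider one for oar-piR-86 and oar-piR-427, and the log2 fold changes of these 3 groups lay between -0.07 and 0.05 with limma FDR of 0.988 to 0.997. In the deep libraries they were 0.32 (SE 0.17) for oar-piR-86, 0.52 (SE 0.43) for oar-piR-427 and -0.012 (SE 0.18) for oar-piR-2623. oar-piR-536 with oar-piR-537, the fifth by level, had 43.0, 289.4 and 892.0 CPM in the well-fed males and 0, 237.3 and 1323 in the underfed males. Its log2 fold change was -1.31 (SE 1.11, limma FDR 0.901) over 16 libraries, with the 0 in the shallow library of underfed 6, and 0.14 (SE 0.75) over the deep libraries.

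At the other end, oar-piR-8877, oar-piR-7454, oar-piR-6425 and oar-piR-7850 had means of 4.98 to 5.56 CPM and 35 to 40 reads each. No value of these groups exceeded 15.4 CPM, both diets included 0, and their limma FDR was 0.955 to 0.997. Such levels are a few reads per deep library. In the deep libraries the log2 fold changes ran from -0.058 (oar-piR-7850) to 0.64 (oar-piR-6425), with limma FDR of 0.817 to 0.996. Of the groups with the widest span of ID numbers, oar-piR-268 had 20.8, 37.1 and 40.3 CPM as lowest, median and highest in the well-fed males and 0, 31.1 and 50.2 in the underfed males. oar-piR-381 had 78.3, 173.9 and 201.8 CPM against 93.7, 196.0 and 329.5, and oar-piR-479 had 0, 5.96 and 24.5 against 0, 4.59 and 30.0. The log2 fold changes of oar-piR-268, oar-piR-381 and oar-piR-479 were -1.30, 0.28 and -0.74 over 16 libraries and -0.026, 0.048 and -1.21 over the deep libraries. Both 0 values of oar-piR-268 were in the shallow underfed libraries.

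Only 2 groups held piRNAs from the study's lists of diet-responsive piRNAs. They were oar-piR-10216 with oar-piR-10217, and oar-piR-10729 to oar-piR-10731, which the study places in introns of MORF4L1. The study called all of these piRNAs DE with edgeR, with higher levels in the underfed males. None of the fits used here called either group DE, and the reason for this difference was not tested. This gene encodes a chromodomain protein of histone acetyltransferase complexes. The lists were made from these same libraries, so the direction of these groups is not independent evidence. Since each group is 1 profile, its 2 or 3 members carry 1 measurement and not several.

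The well-fed males had 6.06, 8.62, 15.4, 0, 0, 4.16, 3.60 and 1.64 CPM of oar-piR-10216 in the order of their numbers. The underfed males had 24.3, 47.4, 70.8, 36.8, 8.17, 0, 0 and 0 CPM. The 4 highest values were in underfed 1 to 4, while 3 underfed males were at 0, of which underfed 7 was a deep library. No library held more than 24 of its reads. The log2 fold change was 1.09 (SE 1.01, limma FDR 0.901), the FC 4.75 and the p of the exact 2-sided permutation test 0.332 over 12870 arrangements of the 16 males. In the 13 deep libraries it was 1.84 (SE 0.86, limma FDR 0.616), and edgeR gave 2.42 with an FDR of 0.184.

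oar-piR-10729 had 4.04, 8.62, 18.4, 0, 0, 8.32, 9.01 and 4.93 CPM in the well-fed males and 24.3, 52.9, 82.6, 40.5, 12.3, 0, 0 and 0 CPM in the underfed males. Both groups were highest in underfed 3 and at 0 in the same 5 males. The log2 fold change was 0.85 (SE 1.05, limma FDR 0.941), the FC 3.98 and the exact permutation p 0.458. It was 1.59 (SE 0.87, limma FDR 0.648) in the deep libraries, and edgeR gave 2.13 with an FDR of 0.293.

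Both MORF4L1 groups had the same number of reads in 7 of the 16 libraries, mostly libraries in which both were at 0. In the others they differed by at most 4 reads, although their ID numbers were 513 apart. Over the 13 deep libraries Pearson's r of the log2 level was 0.969 and Spearman's rho 0.956. This r was the fifth highest among 20301 pairs of groups, whose median was 0.0015. It was 0.886 in the 7 deep well-fed and 0.996 in the 6 deep underfed libraries, and 0.945 in 11 libraries without the 2 farthest from the median (well-fed 4 and underfed 7).

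Other groups also moved together across the males without being identical. Joining groups whose r was above 0.9 over the deep libraries gave 4 sets, and the largest held 12 groups with 37 members: oar-piR-228, oar-piR-366, oar-piR-502, oar-piR-536, oar-piR-855, oar-piR-894, oar-piR-1058, oar-piR-1549, oar-piR-1578, oar-piR-1839, oar-piR-2849 and oar-piR-3473. This set was found in the values and carries no test. Their ID numbers were not adjacent, and their means ran from 29.1 CPM (oar-piR-1578) to 377.1 CPM (oar-piR-536). Of the 66 pairs within it, 38 had an r above 0.9, with a median of 0.904 and a lowest of 0.70. The closest pair of all groups was oar-piR-366 with oar-piR-536, with r 0.982 and rho 0.929, and r 0.949 in 11 libraries without underfed 4 and well-fed 3.

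The summed level of the 12 groups, each counted once, was lowest among the deep libraries in underfed 4 (217.0 CPM) and well-fed 3 (295.1 CPM). It was highest in underfed 2 (5563 CPM), underfed 5 (3177 CPM) and well-fed 4 (2827 CPM). Males of both diets thus stood at both ends. For oar-piR-536 the level was 40.5 CPM in underfed 4 and 1323 CPM in underfed 2, a ratio of 32.7, and for oar-piR-228 it was 11.04 and 534.9 CPM, a ratio of 48.5.

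**Figure D5:**
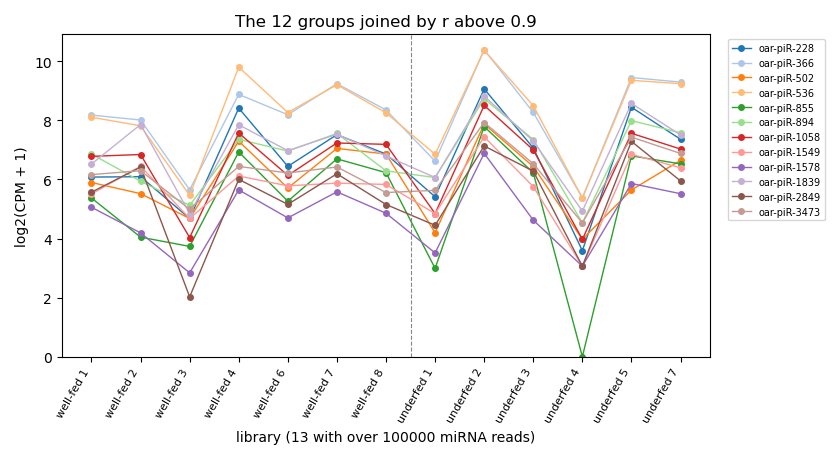
Level as log2(CPM + 1) (y axis) of the 12 groups joined by r above 0.9 in the 13 deep libraries (x axis), well-fed males left of the dashed line and underfed males right of it; each line is 1 group. The lines dip together in well-fed 3, underfed 1 and underfed 4, rise together in underfed 2, and both diets hold high and low males.

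Over all 16 libraries the limma log2 fold changes of the 12 groups ran from -1.50 (oar-piR-1058) to 0.37 (oar-piR-2849), with the lowest unadjusted p at 0.136 (oar-piR-1549). In the deep libraries they ran from -0.41 (oar-piR-855) to 0.47 (oar-piR-2849), with the lowest unadjusted p at 0.316. The correlations were lower without the extreme males. Without underfed 2 and underfed 4 the median r of the 66 pairs was 0.859, the lowest 0.39, and 13 pairs were above 0.9.

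An r above 0.9 with oar-piR-536 was found for 9 of the 201 other groups (4.48%) and for 10 of the 4378 distinct profiles outside the groups (0.228%). Both shares are descriptions, since all profiles share the same libraries and oar-piR-536 was singled out after its values were seen. The remaining sets were 1 pair each: oar-piR-427 with oar-piR-1601, oar-piR-2087 with oar-piR-6473, and the MORF4L1 groups. oar-piR-427, which had an r of only 0.449 with oar-piR-536, was lowest in well-fed 4 (184.0 CPM) and highest in underfed 7 (1473 CPM) among the deep libraries.

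The spread between males differed widely among the abundant groups. In the 37 groups with a mean of at least 100 CPM the coefficient of variation over the 13 deep libraries was 15.6% to 95.4% with a median of 30.7%. The median over the 907 other piRNAs at that level outside the 300 left out was 25.4%. The most variable were oar-piR-228, oar-piR-366, oar-piR-536, oar-piR-894 and oar-piR-1058, which all belong to the set of 12.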

How the data were processed

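Small RNAs of testis from 16 males were sequenced, 1 library per male, with diet and number read from the labels. The authors demultiplexed reads with CASAVA 1.8, removed other non-coding RNAs, mapped reads of 26 to 32 nt perfectly to OAR3.1, kept predicted piRNAs with a single location and counted them with blastn; whether a read could be counted for more than 1 piRNA is not given in the sources used here. The deposited values are a signal made by the authors, CPM of miRNAs and of piRNAs, each divided by its own class total. All low piRNA values were whole multiples of 1 read within 0.1 read, so reads were recovered. Identity was exact equality of the deposited values.

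Levels were compared with limma 3.58.1 (R 4.3.3) on log2(CPM/TMM factor + 1) over all 4996 piRNAs, with the empirical Bayes trend, Benjamini-Hochberg FDR and TMM factors from edgeR 4.0.16. A fold change on this scale can understate or overstate the change of low piRNAs. For oar-piR-10216 the log2 fold change was 1.09 with limma and 2.42 with edgeR, and for oar-piR-268 it was -1.30 and -0.085. The filter was more than 5 CPM in at least 8 libraries. All 4996 listed piRNAs passed it, so the alternative without a filter gave the same fit. Alternatives were no TMM, pseudocounts of 0.1 and 5 CPM, no filter, distinct profiles entered once, the replicate block, edgeR and DESeq2 1.42.0 on recovered reads, the 13 libraries with more than 100000 miRNA reads, and each male left out. Scripts were tested on simulated data, and Python 3.11.15 with numpy 2.4.6, pandas 2.3.3, scipy 1.17.1 and networkx 3.6.1 made the summaries. Intervals and floors cover counting error only, since PCR reads are not independent molecules.

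The groups given with single values were those in the study's lists, the 5 with most members, the 5 highest and the 5 lowest. Added were the 5 with the lowest p in each direction and the 3 with the widest span of numbers. The 3 groups of lowest mean among the excluded 300 were also named. The 3 pairs that differ in exactly 1 library were to be named too, but no such pair exists. The set of 12 groups that moved together, with the pairs joined like it, was chosen after its values were seen. The members and lists were chosen with earlier results of these data known. The labels and the study's text do not say whether replicate numbers pair the males, so they were not used as pairs. Deviations of equal-numbered males correlated at 0.020 on average (-0.079 to 0.145), beside 0.0071 for unequal numbers, and only 3 of 8 pairs were above 0.1. This cannot decide the question, since males paired by another trait need not have similar piRNA levels. miRNAs and sequences were not analysed here.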

Additional observations from a re-analysis of the deposited data

Results flagged for a closer look

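Of the 28 groups given with single values, each was examined in both diets for 1 male standing far from the other 7, which makes 56 sets of 8 males, and chance marks about 1 in 20 of them. Distance was judged on the scale log2(CPM/TMM factor + 1), which spreads low values apart and draws high ones together. On this scale there were 12 such values, all of them low. Of these, 10 lay in the shallow libraries of well-fed 5 or underfed 6, where they stood for 0 to 5 reads. High values that stand apart in CPM can go unmarked. For example, oar-piR-951 and oar-piR-1344 had 39.1 CPM in well-fed 5. The other well-fed males had at most 17.2 CPM of oar-piR-951 and 15.3 CPM of oar-piR-1344. In well-fed 5 the level was 0 CPM for oar-piR-1349, oar-piR-2221, oar-piR-2258, oar-piR-7454 and oar-piR-13238, where the other well-fed males had at least 3.449 CPM. In the same library oar-piR-381 had 78.27 CPM (2 reads) against 130.3 CPM or more, and oar-piR-2623 had 195.7 CPM (5 reads) against 419.1 CPM or more. In underfed 6 the level was 110.4 CPM for oar-piR-86 (2 reads, others from 454.4 CPM), 0 CPM for oar-piR-2144 (others from 23.61 CPM) and 55.22 CPM for oar-piR-6977 (1 read, others from 86.36 CPM).

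In deep libraries the 2 such values were oar-piR-268 in well-fed 6 at 20.8 CPM (15 reads), where the other well-fed males had 33.81 to 40.3 CPM, and oar-piR-2144 in well-fed 2 at 17.25 CPM (10 reads), where they had 32.3 to 49.18 CPM.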

How the results depend on the processing

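The 202 groups and 607 members were found again from recovered reads, from the 13 deep libraries alone, with up to 2 libraries allowed to differ and with any male left out. These repeats could not split or join groups, since no pair of distinct profiles differed in fewer than 5 libraries. Recovered reads are the same values on another scale in each library. Keeping the 300 most abundant piRNAs gave 210 groups with 626 members. DE was called for 0 groups under every alternative. The count of groups with an unadjusted p under 0.05 was 7 with limma (3.47% against 4.65% of the distinct profiles). It was 15 with DESeq2 (7.43% against 4.83%), 14 of 201 in the deep libraries (6.97% against 8.34%) and 20 with edgeR (9.90% against 7.53%). With 1 male left out it was 3 (1.55% against 3.30%) to 12 (6.03% against 6.27%). Among subsets chosen after seeing the data it was 1 of the 41 groups of 3 or more members, 3 of the 52 above 0 in all libraries and 6 of the 149 with 1 unbroken run. No matching subsets of the other piRNAs were formed, so these 3 counts have no background of their own. The median log2 fold change of -0.27 was -0.48 to -0.0042 with 1 male left out, 0.015 with edgeR and 0.062 with DESeq2.

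With the replicate number as a block in limma 0 groups were DE, so the block changed no DE call among the groups. An unadjusted p under 0.05 was reached by 5 groups (2.48% against 3.91% of the distinct profiles). Whether equal numbers pair males is not known.

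For single groups, 48 values changed sign, all in groups that were not DE. With DESeq2, log2 fold changes turned to 0.26 for oar-piR-86, 0.16 for oar-piR-536, 0.034 for oar-piR-2144, 0.51 for oar-piR-2221, 0.0020 for oar-piR-2623 and 0.15 for oar-piR-7454. In the deep libraries they were 0.32, 0.14, 0.25 and 0.011 for oar-piR-86, oar-piR-536, oar-piR-2221 and oar-piR-7454, and with edgeR 0.18, 0.23, 0.44 and 0.11, and -0.050 for oar-piR-8877. Without TMM oar-piR-2623 was at 0.050, and with a pseudocount of 0.1 oar-piR-13039 was at -0.28. With 1 male left out, ranges crossed 0 for oar-piR-13039 (-0.32 to 0.38), oar-piR-2221 (-0.67 to 0.16), oar-piR-2623 (-0.22 to 0.14), oar-piR-427 (-0.22 to 0.37), oar-piR-6425 (-0.092 to 0.52), oar-piR-86 (-0.15 to 0.30) and oar-piR-8877 (-0.25 to 0.32). The cause was not tested.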
